A study of Mus musculus with 10 samples.

Results

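The lysosomal sulfatases and the factors that activate them were examined in retinas of mice given either of 2 adeno-associated virus (AAV) vectors. The set comprised 9 genes, listed by family membership, among 57010 genes in the deposited table: Arsg, Sgsh, Ids, Arsk, Galns, Arsb, Arsa, Sumf1 and Sumf2. Arsg was chosen by its fold change between the 2 groups of these same libraries, so its own difference is given as a description with no test. The other 8 genes were taken as its family. All 9 were among the 15539 genes with enough counts to be tested.

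Mice of 6 to 8 weeks received an injection into the vitreous, and retinas were collected 14 days later, with 5 mice in each group. One group received AAV2-GFP, the AAV2 capsid carrying the green fluorescent protein reporter, and the other received AAV206-GFP, the same reporter in the capsid named AAV206. Both groups were therefore injected and both carried the reporter. Uninjected retinas were not analysed here, and no value below is relative to an untreated eye. The sources used here do not give the strain, sex, vector dose or promoter. The series title names the retinal pigment epithelium (RPE) as the target of the vector under study.

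A sulfatase removes a sulfate group from one kind of sugar or lipid. In the lysosome these enzymes act in series with glycosidases to take apart heparan sulfate, dermatan sulfate, keratan sulfate and the myelin lipid sulfatide, and loss of a single enzyme leaves undegraded chains in the lysosome. Every sulfatase has to be activated in the endoplasmic reticulum, where the formylglycine-generating enzyme encoded by Sumf1 converts a cysteine of the active site. In the retina, inherited loss of ARSG or SGSH is known to damage photoreceptors.

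Levels are given as CPM, counts scaled to a common library size (TMM factors included), as mean ± standard deviation (SD) over 5 mice. Each library is 1 mouse by its label, and differences are log2 fold changes of AAV206-GFP over AAV2-GFP, so positive values mean higher with AAV206-GFP. A gene was called changed at an adjusted p-value under 0.05 in edgeR's quasi-likelihood test, adjusted by the Benjamini-Hochberg method over all 15539 genes. In whole retina, fewer cells of a type and less RNA per cell cannot be told apart.

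The libraries held between 10989843 and 12752604 counts, so that 3 counts correspond to 0.232 to 0.274 CPM. Markers of rods, cones, bipolar, amacrine and ganglion cells were present in every library. Several libraries or groups stood apart in marker levels. The summed level of 13 interferon response genes was 566 and 689 CPM in AAV2-GFP replicates 1 and 4, against 87.2 to 164 CPM in the other AAV2-GFP mice and 89.2 to 113.9 CPM with AAV206-GFP. Replicate 1 of AAV2-GFP was also high for 12 microglia and macrophage genes, at 295 CPM against 41.5 to 77.4 CPM in every other library. The summed level of 6 red blood cell genes was 67.8 to 85.8 CPM in the AAV2-GFP mice and 101 to 320 CPM in the AAV206-GFP mice, without overlap. Rod and cone marker sums also did not overlap, at 53220 to 56740 against 56910 to 62780 CPM for 8 rod genes and 831 to 934 against 939 to 997 CPM for 7 cone genes. The sum of 10 lens genes was 15.8 to 37.6 CPM with AAV2-GFP and 1.88 to 18.6 CPM with AAV206-GFP, with 2 of 4 tested called lower and Lim2 at 0 in every library. The sum of 9 T and NK lymphocyte genes was 18.2 CPM in AAV2-GFP replicate 1 and at most 0.949 CPM in every other library. The sum of 12 RPE markers lay between 17.5 and 49.7 CPM with AAV2-GFP and between 20.5 and 29.2 CPM with AAV206-GFP. The part of any of these in the results on sulfatases was not tested, except that each value was recomputed without AAV2-GFP replicates 1 and 4.

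Besides Arsg, which was chosen for its rise, Sgsh was called higher with AAV206-GFP. Arsg, Sgsh, Ids and Arsk of the set lie on the heparan sulfate route, and Ids and Arsk did not pass. With Arsg set aside, Sgsh was the only gene of the set on that route to be called, so no pattern of the route follows. Of the 8 genes tested besides Arsg, Sgsh passed and 7 did not. Sgsh was thus 1 of the 8 genes besides Arsg to be called, against a background of 11.2% of all genes tested (5.95% higher and 5.3% lower), so the count alone does not set the family apart. The groups did not overlap at all for Sgsh and Sumf1, 2 of the 8 genes besides Arsg, where 9.78% of all genes tested showed no overlap. They did not overlap for Arsg either, but it was chosen by that difference and is not counted. The median log2 fold change was 0.03 over the 8 genes without Arsg and -0.01 over all genes tested.

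Arsg encodes arylsulfatase G, which removes the 3-O-sulfate from glucosamine in heparan sulfate. The gene (ENSMUSG00000020604) lies on chromosome 11 from 109473374 to 109573330 on the plus strand in build mm10. Its level in the AAV2-GFP mice was 17.0, 19.3, 14.2, 16.1 and 12.8 CPM in the order of their replicate numbers. In the AAV206-GFP mice it was 34.9, 43.0, 38.6, 36.3 and 33.5 CPM. The lowest AAV206-GFP mouse stood well above the highest AAV2-GFP mouse. The means were 15.9 ± 2.52 and 37.2 ± 3.70 CPM (SD, n = 5), a 2.35-fold difference with a log2 fold change of 1.23 and a standard error of 0.11. These values rest on 150 to 215 counts per library with AAV2-GFP and 395 to 471 with AAV206-GFP. Without AAV2-GFP replicates 1 and 4, the log2 fold change was 1.27, and with any one library left out it lay between 1.16 and 1.31.

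Sgsh encodes the sulfamidase that cleaves the sulfate from the nitrogen of glucosamine in heparan sulfate. The gene (ENSMUSG00000005043) lies on chromosome 11 from 119343425 to 119355536 on the minus strand in mm10, on the same chromosome as Arsg. Its level was 11.8, 10.8, 10.3, 8.79 and 10.4 CPM in AAV2-GFP mice 1 to 5, and 16.9, 19.1, 15.4, 16.7 and 16.1 CPM in AAV206-GFP mice 1 to 5. All AAV206-GFP mice exceeded all AAV2-GFP mice. Sgsh rose from 10.4 ± 1.10 to 16.8 ± 1.39 CPM (SD, n = 5), or 0.69 ± 0.11 (SE) on the log2 scale (edgeR adjusted p = 0.00105). Without AAV2-GFP replicates 1 and 4, which carried the highest interferon marker levels, the log2 fold change of Sgsh was 0.67 (edgeR adjusted p = 0.00466). Over all alternatives run for Sgsh the adjusted p lay between 1.71e-06 and 0.00541.

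**Figure D1:**
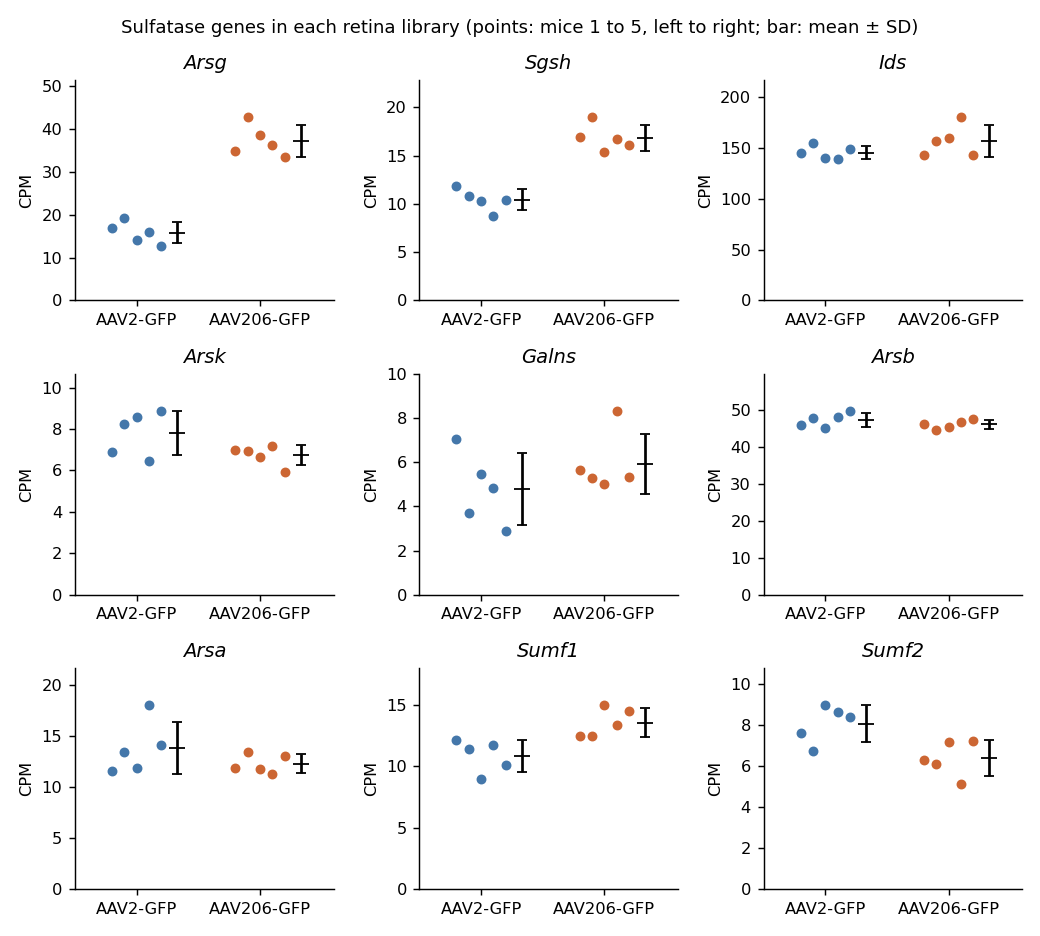
CPM (y axis, from 0) of the 9 sulfatase genes in each of the 10 libraries, with AAV2-GFP in blue and AAV206-GFP in orange. Points are mice 1 to 5 from left to right, and the black bar is the mean ± SD of the 5 mice. The groups separate for Arsg, Sgsh and Sumf1 and overlap for the other 6 genes.

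The deposited counts of Sgsh carried decimals in all 10 libraries, as arises when an estimator divides reads between genes. In each library the decimals of Sgsh and of the overlapping gene Card14, on the opposite strand, summed to a whole number within 0.02 counts. Card14 held only 1 to 14 counts per library. The pair together measured 10.8 ± 0.90 CPM in the AAV2-GFP mice and 17.4 ± 1.37 CPM in the AAV206-GFP mice (SD, n = 5), and with Card14's counts given to Sgsh the log2 fold change was 0.69 (edgeR adjusted p = 0.000708). Arsg carried no decimals in any library.

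The remaining heparan sulfate enzymes of the set were Ids and Arsk. Ids (ENSMUSG00000035847; X chromosome, 70343069 to 70365084), the iduronate sulfatase that also acts on dermatan sulfate, ranged from 139 to 155 CPM in the AAV2-GFP mice and from 143 to 181 CPM in the AAV206-GFP mice. Its log2 fold change of 0.11 did not pass (95% confidence interval -0.04 to 0.25, edgeR adjusted p = 0.335). Arsk (ENSMUSG00000021592; chromosome 13, 76060422 to 76098660), a sulfatase acting on glucuronate, ranged from 6.45 to 8.89 and from 5.94 to 7.18 CPM. Its log2 fold change of -0.21 did not pass (95% confidence interval -0.52 to 0.09, edgeR adjusted p = 0.345). The upper bound for Arsk excludes a rise of the size estimated for Sgsh or Arsg, and so does that for Ids.

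The enzymes of the other substrates were Galns, Arsb and Arsa, and none of them passed. Galns (ENSMUSG00000015027; chromosome 8, 122578242 to 122611463), which acts on keratan and chondroitin sulfate, was the least counted member, with 34 to 93 counts per library. It ranged from 2.90 to 7.05 CPM in the AAV2-GFP mice and from 5.002 to 8.34 CPM in the AAV206-GFP mice, and its interval of -0.19 to 0.79 on the log2 scale still admits a rise as large as that of Sgsh. Arsb (ENSMUSG00000042082; chromosome 13, 93771630 to 93943016), which acts on dermatan and chondroitin sulfate, was the most even member. It measured 47.3 ± 1.84 and 46.0 ± 1.13 CPM (SD, n = 5), a difference of -0.04 on the log2 scale with a 95% confidence interval of -0.16 to 0.09. Arsa (ENSMUSG00000022620; chromosome 15, 89472476 to 89477425), which degrades sulfatide, measured 13.8 ± 2.60 and 12.3 ± 0.93 CPM (SD, n = 5), a difference of -0.17 on the log2 scale with an interval of -0.45 to 0.11.

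The activating factor and its relative had estimates of opposite sign, and neither passed. Sumf1 (ENSMUSG00000030101; chromosome 6, 108107028 to 108185582), the formylglycine-generating enzyme, was at 12.1, 11.4, 8.97, 11.8 and 10.1 CPM in AAV2-GFP mice 1 to 5. In AAV206-GFP mice 1 to 5 it was at 12.5, 12.5, 15.0, 13.4 and 14.5 CPM, above every AAV2-GFP mouse but by a narrow margin. The estimate was 0.32 ± 0.12 (SE) on the log2 scale (edgeR adjusted p = 0.0901, from 0.064 to 0.192 over its alternatives). Sumf2 (ENSMUSG00000025538; chromosome 5, 129846986 to 129864050), a paralogue of Sumf1 that lacks its enzymatic activity, was at 7.59, 6.74, 8.97, 8.63 and 8.37 CPM with AAV2-GFP. With AAV206-GFP it was at 6.31, 6.11, 7.16, 5.11 and 7.21 CPM, and the groups overlapped. The estimate was -0.34 ± 0.15 (SE) on the log2 scale (edgeR adjusted p = 0.149). Whether Sumf1 and Sumf2 differed from each other in their response was not tested.

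**Figure D2:**
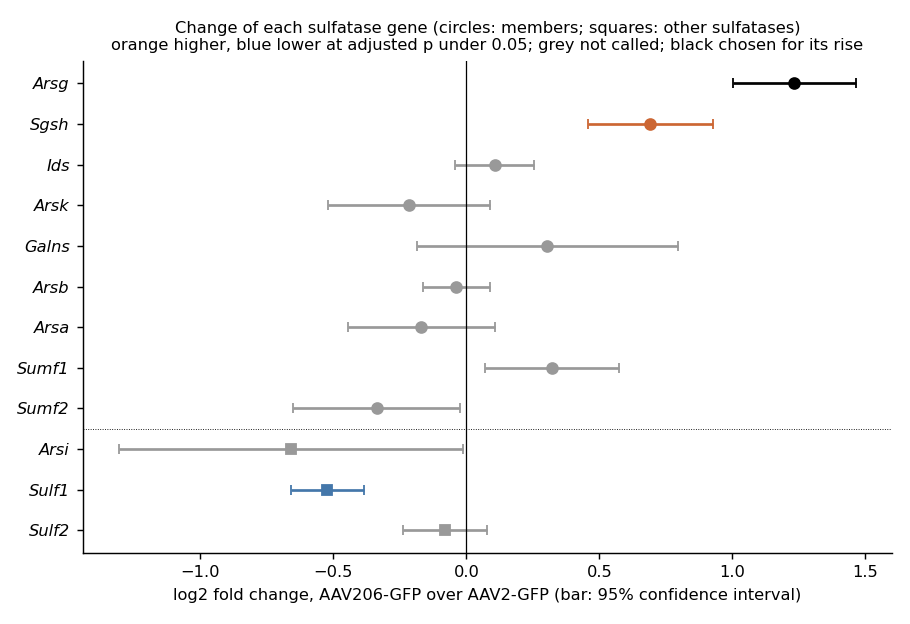
Log2 fold change of AAV206-GFP over AAV2-GFP (x axis) with its 95% confidence interval for the 9 listed genes (circles) and 3 other sulfatases (squares). Sgsh lies above 0 at an adjusted p under 0.05 and Sulf1 below it, grey genes did not pass, and Arsg (black) was chosen for its rise.

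Decimals in the counts of Arsb, Arsa and Sumf2 likewise paired with 1 overlapping gene each. Gm47210 with Arsb held at most 8 counts, C230037L18Rik with Arsa 2 to 8 counts and Phkg1 with Sumf2 5 to 17 counts. The labels name a library kit but do not say whether strand was used in counting. Adding each partner's counts to its member left the call of every one of the 9 genes as it was.

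Levels of different genes were compared per kilobase of merged exon length from GENCODE M21. With AAV2-GFP the order in CPM per kilobase was Ids (28.6 ± 1.26), Arsb (7.83 ± 0.31), Arsg (4.06 ± 0.65), Arsa (3.76 ± 0.71), Sumf1 (3.19 ± 0.39), Sumf2 (3.02 ± 0.34), Sgsh (2.36 ± 0.25), Galns (1.81 ± 0.61) and Arsk (1.32 ± 0.18; SD, n = 5 for each). Ids thus stood far above the family, while the ranges of mean ± SD overlapped between neighbours in the order from Arsg to Sumf2 and again between Sgsh and Galns and between Galns and Arsk. With AAV206-GFP, Arsg at 9.54 ± 0.95 CPM per kilobase ranked second, above Arsb at 7.63 ± 0.19. Sgsh at 3.81 ± 0.31 then overlapped with Sumf1 at 3.98 ± 0.34 in the range of mean ± SD, while Arsa was at 3.35 ± 0.25, Sumf2 at 2.39 ± 0.32, Galns at 2.23 ± 0.52 and Arsk at 1.14 ± 0.08. Merged exons count every annotated exon, so a gene that uses few of them in retina is understated on this scale.

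Spread between mice differed among the members. With AAV2-GFP the coefficient of variation ran from 3.9% for Arsb and 4.4% for Ids to 33.6% for Galns. With AAV206-GFP it ran from 2.46% for Arsb to 23.2% for Galns, and it was 9.93% for Arsg and 8.26% for Sgsh.

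Promoter sequence was read from RefSeq (GRCm38.p6) over the 250 bases before each annotated start, for 8 of the 9 genes (Galns is not among them). The E-box CACGTG, the core recognised by the lysosomal regulator TFEB and by many other factors of its class, reads the same on both strands. It was found in 3 of the 8 genes, Sgsh, Sumf1 and Arsa, and in 6.86% of all 27025 genes with such windows. The 30 bases around each E-box are shown because Sgsh, which rose, and Arsa, which did not pass, both hold one. The capitals mark the E-box, and each sequence is on the minus strand.
Sgsh: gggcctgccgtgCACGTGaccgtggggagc
Sumf1: agcaccacaggtCACGTGatctccatgggt
Arsa: tcaactcagtgtCACGTGttgtctgctcct
These lie at chr11:119355522-119355551, chr6:108185577-108185606 and chr15:89477423-89477452, with the motif beginning 29, 11 and 16 bases before the start. The 2 windows of Arsg held no E-box. Both begin at starts inside the gene, and the most upstream start of Arsg in GENCODE M21 is not covered by them, so nothing follows for that promoter.

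The genes next to Arsg and Sgsh were examined for the same difference. Slc16a6, a monocarboxylate transporter gene on the opposite strand, overlaps Arsg by 225 bases at their starts. It measured 234 ± 15.5 CPM in the AAV2-GFP mice and 208 ± 9.89 CPM in the AAV206-GFP mice (SD, n = 5), a difference of -0.17 on the log2 scale (edgeR adjusted p = 0.0759, from 0.0353 to 0.169 over its alternatives). It passed without AAV2-GFP replicate 3 (edgeR adjusted p = 0.0353) and with DESeq2 (adjusted p = 0.036). The nearest genes upstream were Amz2, a peptidase gene with decimals in its counts that fell by 0.27 on the log2 scale (edgeR adjusted p = 0.00937), and Gna13, a G protein gene at -0.10 that did not pass. Downstream, the autophagy gene Wipi1 was at 0.01 and the protein kinase A subunit gene Prkar1a at -0.09, and neither passed. Of the 10 other tested genes whose bodies reach within 500 kb of Arsg, 2 were higher and 1 was lower, against 5.95% higher and 5.3% lower of all genes tested. The higher ones, named after their values were seen, were Rgs9, which speeds the shut-off of the photoreceptor response, with a log2 fold change of 0.79 (edgeR adjusted p = 0.0132), and Gm11696 with 0.48 (edgeR adjusted p = 0.0093).

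Around Sgsh, 1 of 14 other tested genes within 500 kb was called (11.2% of all genes tested), chosen here after its value was seen: Rptor, the mTORC1 subunit gene, with a log2 fold change of 0.30 (edgeR adjusted p = 0.00593). The sulfate transporter gene Slc26a11, which starts next to Sgsh and runs the other way, measured 9.20 ± 1.14 and 10.1 ± 2.17 CPM (SD, n = 5) and did not pass (log2 fold change 0.14). Gaa, the lysosomal glucosidase gene beside Sgsh, was at 0.01. Over chromosome 11 as a whole, 63 of 1159 tested genes were higher and 96 lower, against 5.95% higher and 5.3% lower of all genes tested. Lower calls thus outnumbered higher calls on this chromosome, unlike over all genes. The median log2 fold change was -0.05 on chromosome 11 and -0.01 over all genes tested.

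**Figure D3:**
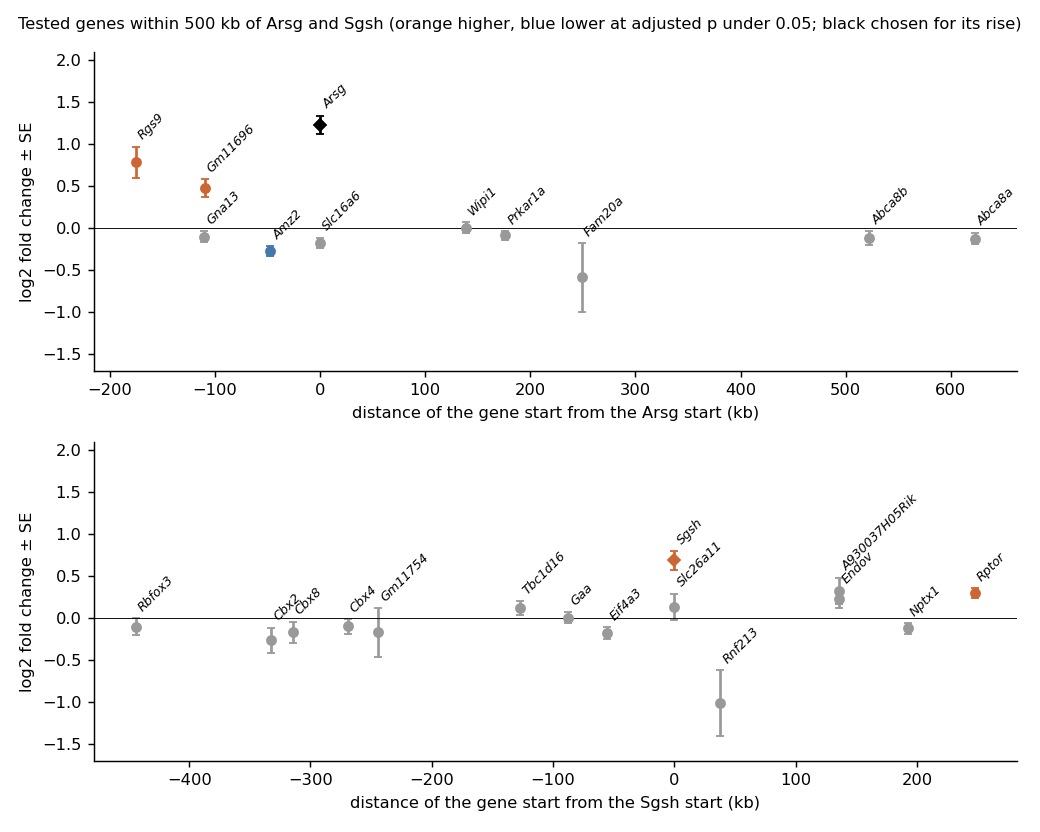
Log2 fold change ± standard error (y axis) of the tested genes whose bodies reach within 500 kb of Arsg (upper panel) and Sgsh (lower panel), against the distance between gene starts in kb (x axis). Diamonds mark Arsg (black, chosen for its rise) and Sgsh. The adjoining Slc16a6 and Slc26a11 lie near 0, and Rgs9, Gm11696 and Rptor are the other higher genes.

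Genes whose levels followed Arsg most closely over the 10 libraries were sought among 14958 genes by Pearson correlation of log2 CPM. The closest were the non-coding genes Gm20139 (r = 0.982) and Gm26559 (r = 0.978), the zinc finger gene Zfp599 (r = 0.975), the Otx2 antisense RNA Otx2os1 (r = 0.974) and Cbr4 (r = 0.968), a reductase of mitochondrial fatty acid synthesis. These correlations contain the difference between the groups, and with group means subtracted they were 0.702, 0.790, 0.763, 0.846 and 0.610. The 5 genes were picked by the first correlation, which also holds the spread within groups, so the second values tend to be high by that choice. Gm20139 measured 9.66 ± 1.86 CPM in the AAV2-GFP mice and 39.4 ± 4.95 CPM in the AAV206-GFP mice (SD, n = 5). Zfp599 measured 2.43 ± 0.52 and 5.91 ± 0.80 CPM (SD, n = 5). The counts of Otx2os1 held decimals throughout, and its level is uncertain for that reason.

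Within the family, Sgsh was at rank 52 (r = 0.939) and Sumf1 at rank 712 (r = 0.804), in an order that holds the group difference by which Arsg was chosen. With group means subtracted the order of these genes turned, with 0.406 for Sumf1 and 0.339 for Sgsh. Sumf2 lay at the other end, at rank 14309 (r = -0.785).

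**Figure D4:**
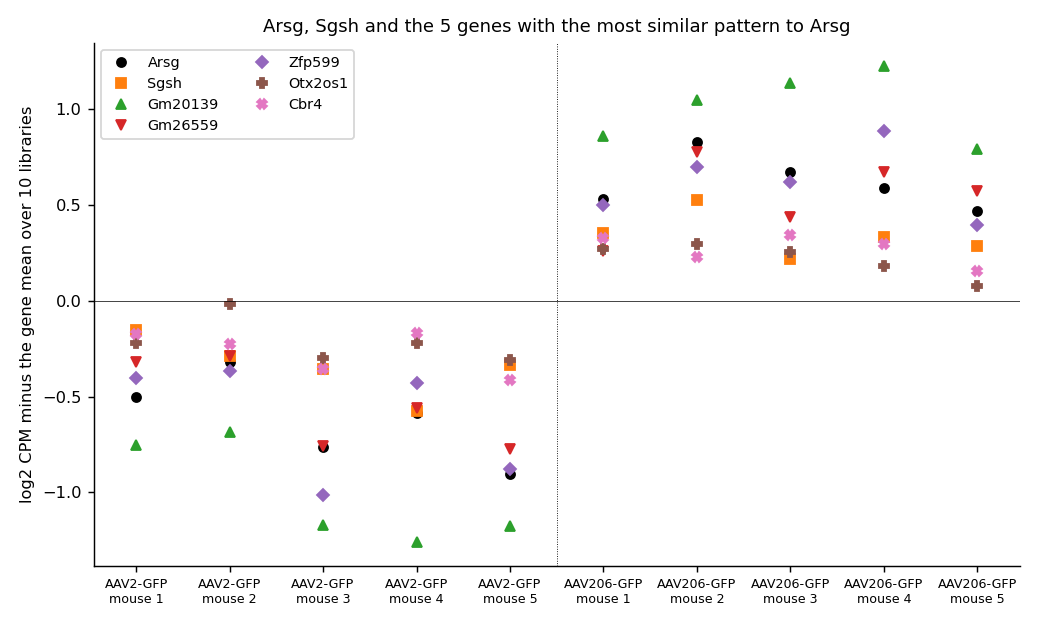
Log2 CPM minus each gene's mean over the 10 libraries (y axis) for Arsg, Sgsh and the 5 genes most similar to Arsg, in each library (x axis, AAV2-GFP left of the dotted line). All 7 genes lie below 0 in every AAV2-GFP mouse and above 0 in every AAV206-GFP mouse, with Gm20139 moving furthest. Arsg was chosen for its rise and the 5 genes for their likeness to Arsg, so their separation follows largely from that choice.

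Of the sulfatases Sulf1, Sulf2 and Arsi, which lie outside the set, 1 was called, and it was lower. Of all genes tested 11.2% were called and 5.3% were lower, and so few sulfatases cannot be set against that share. Sulf1 (ENSMUSG00000016918), a secreted sulfatase that edits heparan sulfate at the cell surface, fell from 61.0 ± 4.43 to 42.5 ± 1.53 CPM (SD, n = 5), or -0.52 ± 0.07 (SE) on the log2 scale (edgeR adjusted p = 0.000128). Its levels were 56.5 to 68.0 CPM in the AAV2-GFP mice and 41.1 to 44.4 CPM in the AAV206-GFP mice, without overlap. The related Sulf2 was at -0.08 (edgeR adjusted p = 0.505). Arsi, at 2.14 ± 0.53 and 1.35 ± 0.44 CPM (SD, n = 5), did not pass (edgeR adjusted p = 0.17). Arsj was too low to test and Sts was not analysed here.

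The glycosidases, transferases and helper proteins that complete these routes were nearly all below the threshold. Of 15 listed degradation genes 0 were called higher and 1 was called lower, 6.67% of the list against 11.2% of all genes, with a median log2 fold change of -0.13. Hexa, a subunit of beta-hexosaminidase, fell from 35.6 ± 5.08 to 23.7 ± 2.60 CPM (SD, n = 5), or -0.59 ± 0.11 (SE) on the log2 scale (edgeR adjusted p = 0.00225), without overlap. The heparan sulfate enzymes next to Sgsh and Ids in the route did not pass. Naglu was at 0.13 (edgeR adjusted p = 0.581), Hgsnat at 0.16 (edgeR adjusted p = 0.139), Idua at 0.04 (edgeR adjusted p = 0.906) and Gusb at -0.15 (edgeR adjusted p = 0.57) on the log2 scale. The sulfatide enzyme Galc was at 0.05 and its activator precursor Psap at -0.13. Leaving out AAV2-GFP replicate 1 or replicate 5 brought the count to 2.

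Genes that build and sulfate the chains were called about as often as all genes. Of 49 listed, 45 were tested, 1 was higher and 4 were lower (11.1% against 11.2% of all genes), and the median log2 fold change was 0.01. Slc35b3, a transporter of the sulfate donor into the Golgi, rose from 12.02 ± 1.15 to 16.6 ± 3.14 CPM (SD, n = 5; edgeR adjusted p = 0.0372). Slc35b2, the other such transporter listed, measured 24.2 ± 2.58 and 22.1 ± 2.64 CPM (SD, n = 5). Its log2 fold change of -0.13 did not pass (edgeR adjusted p = 0.429). The 4 that fell were the chondroitin sulfotransferase Chst3 at -0.44, the chondroitin chain factor Chpf at -0.30, the heparan sulfotransferase Hs6st1 at -0.26 and Hs3st3b1 at -0.25 on the log2 scale (edgeR adjusted p = 0.0131, 0.0221, 0.0378 and 0.0202). Hs3st3b1 adds the 3-O-sulfate that arylsulfatase G removes, and its level fell from 163 ± 8.74 to 138 ± 9.45 CPM (SD, n = 5) with overlap between the groups. Its counts held decimals in all 10 libraries. Hs3st3b1 was the 1 gene called among 7 listed of its kind, of which 6 were tested (16.7% against 11.2% of all genes). The median log2 fold change of the 6 was -0.24. Hs3st5 was at -0.33 without overlap between the groups but did not pass (edgeR adjusted p = 0.0653), and Hs3st2 was at 0.17. Most of the calls in the synthesis list lay close to the threshold. With single libraries left out, the log2 fold changes stayed between 0.40 and 0.55 for Slc35b3, -0.30 and -0.21 for Hs6st1, -0.35 and -0.24 for Chpf and -0.29 and -0.22 for Hs3st3b1, but the calls did not all hold. Slc35b3 did not pass without any one of AAV2-GFP replicates 2, 3 and 4 or AAV206-GFP replicates 1, 2 and 4 (edgeR adjusted p = 0.0644 to 0.1), and Hs6st1 passed in only 3 of 10 such fits (highest edgeR adjusted p 0.113, without AAV2-GFP replicate 4). Without AAV2-GFP replicates 1 and 4 together, neither Slc35b3 (log2 fold change 0.41) nor Hs6st1 (-0.23) passed (edgeR adjusted p = 0.136 and 0.139), and Slc35b3 did not pass with limma-voom (adjusted p = 0.0506). Chpf did not pass without AAV2-GFP replicate 3 or 4 or AAV206-GFP replicate 2 or 4 (edgeR adjusted p = 0.0513 to 0.071). Hs3st3b1 did not pass without AAV2-GFP replicate 5 or AAV206-GFP replicate 2 or 3 (edgeR adjusted p = 0.0505 to 0.0581). The number of genes called in the list was 9 without AAV2-GFP replicate 1 and 8 without AAV206-GFP replicate 5, and 2 or 3 without any other single library except AAV2-GFP replicate 2.

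General lysosome genes moved in both directions. Of 39 listed and tested, 2 were higher and 4 lower (15.4% called against 11.2% of all genes), with a median log2 fold change of 0.01. Mcoln1, the lysosomal calcium channel, rose from 61.0 ± 3.24 to 76.9 ± 4.98 CPM, and the acid phosphatase Acp2 from 55.7 ± 3.17 to 68.2 ± 4.59 CPM (SD, n = 5; edgeR adjusted p = 0.00366 and 0.0104). Tfeb, the transcription factor that activates many lysosomal genes, fell from 11.9 ± 1.28 to 7.74 ± 1.46 CPM (SD, n = 5), or -0.62 ± 0.14 (SE) on the log2 scale (edgeR adjusted p = 0.0131). The proteases Ctsb and Ctsd and the lipase Lipa fell by 0.32, 0.32 and 0.49 on the log2 scale (edgeR adjusted p = 0.00684, 0.0221 and 0.0275). In these 3 genes the highest level was in AAV2-GFP replicate 1, the mouse with the highest microglia marker sum. Without that mouse alone they still passed, at -0.26, -0.23 and -0.39 on the log2 scale (edgeR adjusted p = 0.0134, 0.0291 and 0.0489). Without AAV2-GFP replicates 1 and 4 together they were at -0.25, -0.23 and -0.41 and did not pass (edgeR adjusted p = 0.0516, 0.0858 and 0.0877), and the count for the list was 3, with Mcoln1, Acp2 and Tfeb still past the threshold. Ctsd also missed it without AAV206-GFP replicate 2 or 4 (edgeR adjusted p = 0.0542 and 0.0556), and Lipa without AAV206-GFP replicate 1, 2 or 5 (edgeR adjusted p = 0.0524 to 0.0549). The counts of Ctsb and Acp2 held decimals in all 10 libraries.

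**Figure D5:**
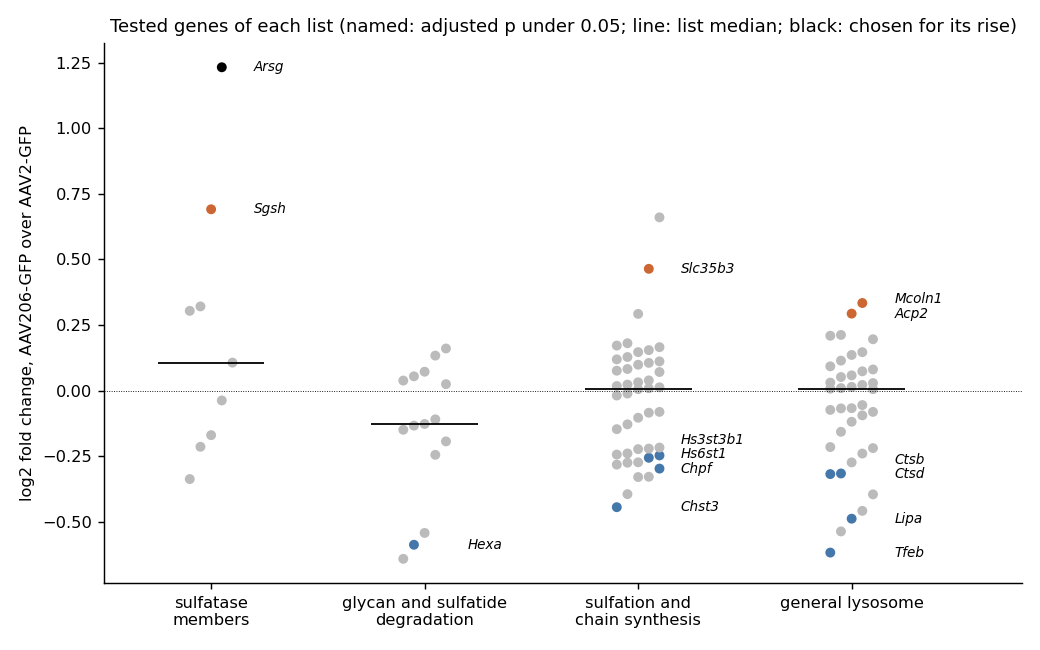
Log2 fold change of AAV206-GFP over AAV2-GFP (y axis) of every tested gene in the 9-gene sulfatase set and 3 related lists (x axis), with the list median as a line. Named genes passed at an adjusted p under 0.05, except that Arsg (black) was chosen for its rise. Sgsh lies above every gene called in the other lists, and the place of Arsg follows from how it was chosen.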

How the data were processed

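RNA was measured by bulk sequencing of retinas from 10 mice. Per the labels' protocols, RNA was extracted with Trizol and sequenced as pairs of 150 bases. Per the submitters' processing notes, STAR 2.7.10b, RSEM 1.3.1 and build mm10 were used, with no role given. The annotation is not given in the sources used here. The authors deposited expected counts per Ensembl gene, unscaled, of which 5.95% carry decimals. They were rounded to whole numbers for modelling.

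Names, positions and exon lengths came from GENCODE M21 (GRCm38, the assembly of mm10), which named 15288 of the 15539 tested genes. Groups and replicate numbers came from the sample titles. In edgeR 4.0.16 (R 4.3.3), genes were kept by filterByExpr (minimum count 10) and scaled with TMM factors. The quasi-likelihood test used all 10 libraries without covariates, and the procedure was tested on simulated data. There it recovered 61.2% of the genes changed 1.5-fold and 74.3% of those changed 2-fold, with 8 false calls among 143. A gene that did not pass can therefore still have changed. P-values set the difference between the groups against the spread between these mice, which also holds counting error. Counting floors cover counting error only, since reads carried no molecular identifiers. Correlations used log2 CPM with a prior count of 2.

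Alternatives were other scaling, filters, DESeq2 1.42.0, limma-voom (limma 3.58.1), unrounded counts, the replicate number as a block and left-out libraries. Adding overlapping partners' counts was chosen after seeing the data. The genes, lists and rules were chosen with earlier results of these data known. Named genes were the 9 members, list genes past the threshold, the neighbours of Arsg and the 5 genes most like it. List genes named below the threshold and genes around Sgsh were chosen after their values were seen. One listed gene outside the members is not reported here.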

Additional observations from a re-analysis of the deposited data

Results flagged for a closer look

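In 5 of 60 group results, for 30 genes in 2 groups each, 1 mouse lay far from the other 4 of its group by Dixon's ratio of its gap to the range of the group. Chance gives about 3 of 60. Galns in AAV206-GFP replicate 4 was at 8.34 CPM where the remaining mice lay from 5.002 to 5.64 CPM (ratio 0.81). Tfeb and Mcoln1 in AAV2-GFP replicate 2 were at 14.1 CPM against 10.8 to 11.8 CPM (ratio 0.722) and at 66.7 CPM against 59.0 to 60.9 CPM (ratio 0.754). Lipa in AAV2-GFP replicate 1 was at 19.4 CPM against 13.6 to 15.2 CPM (ratio 0.729), and Slc35b3 in AAV2-GFP replicate 5 was at 14.01 CPM against 11.2 to 11.99 CPM (ratio 0.723).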

How the results depend on the processing

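The 8 genes besides Arsg kept their direction and their side of the threshold in the 21 alternatives run for each, and Arsg kept its direction. Genes called in all numbered 1085 with the replicate number as a block (1061 of them among the 1747) and 985 without AAV2-GFP replicates 1 and 4 (876 among the 1747). Leaving out 1 library gave 991 to 1912, with 991 without AAV2-GFP replicate 4, 1074 without AAV206-GFP replicate 2 and 1056 without AAV206-GFP replicate 4. Equal replicate numbers did not deviate together over all genes tested (correlations -0.042 to 0.025). The labels do not say whether they share a litter or batch, and a likeness in few genes would not show in this check. Degradation genes called were 2 with no filter, with DESeq2 and with the block, and 1 to 2 with 1 library left out. Synthesis genes called were 9 with DESeq2, 2 with the block and 2 to 9 with 1 library left out, and general lysosome genes 3 without AAV2-GFP replicates 1 and 4. The cause of these shifts was not tested. At 34 counts, Galns is the member most limited by depth.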
